A study of Drosophila melanogaster with 10 samples.

Results

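The genes described here encode the proteins that mark and license replication origins: Orc1, Orc2, lat (the gene of Orc3), Orc4, Orc5 and Orc6 of the origin recognition complex, dup (the fly Cdt1) and geminin. They were chosen by name, and make up 8 of the 15422 rows of the deposited table. All 8 passed the filter on low values, which asked for at least 1 RPKM (reads scaled to transcript length in kilobases and to mapped megareads) in at least 2 of the 10 libraries. Whole Drosophila melanogaster embryos of stages 15 to 16, grown at 25 C, were profiled by sequencing of polyA RNA. In the control the driver prospero-Gal4 was present without a transgene (pros-Gal4/+). Embryos of the other genotypes combined that driver with a UAS transgene of dacapo, the fly inhibitor of cyclin E with Cdk2. The transgene was wild-type dacapo (dap), or a form said in the labels to make a stabilized protein, dapCRL4, dapPCNA or dapCDI. There were 5 genotypes with 2 libraries each. The labels call these samples independent and say no more, so every p-value below measures the spread between these samples. Since prospero is best known for its role in the nervous system and RNA came from whole embryos, cells without the driver contribute to every value. A lower level in such bulk RNA cannot tell fewer cells of a type from less RNA per cell.

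The origin recognition complex binds DNA where replication can start and, with Cdc6 and Cdt1, loads the MCM helicase there before S phase. Geminin binds Cdt1 and blocks loading once S phase has begun. In S phase the Cdt1 protein is also destroyed by the Cullin-4 ligase with its reader Cdt2, at PCNA on DNA. In late embryos most epidermal cells have stopped dividing, while neuroblasts still divide and some gut tissues enter endocycles. Transcripts of these genes were therefore measured in a mixture of cycling, endocycling and arrested cells.

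Counted reads, estimated from genes with few reads, lay between 17.0 and 25.8 megareads a library. Control libraries held 70.5 and 70.7 RPKM of the dap gene itself. It stood at 85.8 and 83.4 RPKM with the dap transgene, 81.0 and 75.7 with dapCRL4, 70.7 and 73.3 with dapPCNA, and 170 and 156 with dapCDI. The dapPCNA libraries thus lay at or just above the control, and how transgene reads enter the dap row is not given in the sources used here. Genotype names below follow the labels. Among marker genes, summed neuroblast and progenitor transcripts (7 genes) lay between 104 and 130 RPKM, and summed neuronal transcripts (8 genes) between 258 and 379 RPKM. Summed markers of glia (5 genes), muscle (6), germ cells (5) and gut (4) spanned 339 to 406, 5490 to 7510, 15.4 to 19.7 and 160 to 207 RPKM. The neuronal markers that passed the filter (7) had a median log2 difference from the control of -0.48 in dap and -0.75 in dapCDI, with 1 called lower in each, and of -0.18 in dapCRL4 and -0.14 in dapPCNA with 0 called. In dap 2 muscle markers and 1 gut marker were also called lower, and in dapCDI 1 neuroblast and progenitor marker. For comparison, 11.8% of all genes tested were called, higher or lower, with wild-type dap and 7.56% with dapCDI. Over all genes, differences from the control fell with exon length, most in dap and dapCDI (Spearman correlation -0.573 and -0.55). The marker values were not corrected for length. Whether any marker list differs from all genes was not tested. The part of these markers in the values below was not tested.

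Positions are given on build BDGP6. The large, ATP-binding subunit gene Orc1 (FBgn0286788) lies on the minus strand of 2R from 7522437 to 7525716, with 3152 exonic bases. Orc2 (FBgn0015270) lies on the plus strand of 3R from 13964885 to 13967075, with 1995 exonic bases. The gene of the third subunit, lat (latheo, FBgn0005654, current symbol Orc3), known from screens for learning mutants, lies on the minus strand of 2R from 13202728 to 13206547 with 3315 exonic bases. Orc4 (FBgn0023181, 2R, minus strand, 24795740 to 24797414) and Orc5 (FBgn0015271, 2L, plus strand, 13829837 to 13831576) encode further ATPase-family subunits, from 1615 and 1687 exonic bases. Orc6 (FBgn0023180), the smallest subunit and in flies also a cytokinesis protein, lies on the minus strand of 2R from 9845458 to 9846485, with 972 exonic bases. The gene dup (double parked, FBgn0000996) lies on the minus strand of 2R from 15376619 to 15380988 with 3138 exonic bases, and geminin (FBgn0033081) on the same strand of 2R from 6655463 to 6656594 with 1061. All 8 are protein-coding.

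Neighbouring genes touch most of these loci. The lat exons are shared in full (100%) with CG34315 on the same strand, a gene whose own row held at most 0.141 RPKM. Few reads were thus listed under CG34315, and how reads of the shared exons were counted is not given in the sources used here. On the opposite strand, Orc6 shares 5.66% of its exonic bases with Sting, Orc5 5.63% with GatC and PolG2, and dup 5.04% with SRPK. The shares were 3.33% for Orc1 with PIG-G, 2.04% for Orc4 with an antisense RNA and 0.752% for Orc2 with rdx, and geminin had no such overlap. Whether counting used strand is not given in the sources used here, so values of the overlapping genes are uncertain by the reads of those ends.

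Geminin and dup were listed above every subunit of the origin recognition complex. Geminin had the highest level, 62.4 RPKM as a mean over the 10 libraries, at the percentile 79.2 of the 10396 genes tested. Its binding partner dup followed at 24.1 RPKM (percentile 55.5), and Orc1 led the subunits at 12.6 RPKM (percentile 38.2). The remaining subunits were low. Orc4 averaged 7.32 RPKM, Orc6 6.43, Orc5 4.26, lat 3.98 and Orc2 3.67, the last at percentile 17.8. Geminin exceeded dup, dup exceeded Orc1, Orc1 exceeded Orc4 and Orc6 exceeded Orc5 in all 10 libraries, so these steps held within every library. Between libraries the ranges of Orc6 and Orc5 still overlapped, with a lowest Orc6 value of 4.74 RPKM and a highest Orc5 value of 4.87. The smallest ratio of Orc6 to Orc5 within a library was 1.1. Orc4 exceeded Orc6 in 9 libraries, lat exceeded Orc2 in 8 and Orc5 exceeded lat in 7, so these neighbours were not separated in every library. Within a gene, the highest library was 1.26 times the lowest for Orc1 and 1.72 times for Orc6, the extremes of the 8.

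Estimated reads differed between the genes, and their part in the precision of these values was not tested. Geminin rested on an estimated 1062 to 1684 reads a library and dup on 1185 to 1993, against 92 to 164 for Orc6 and 116 to 173 for Orc5. Counting error alone was 0.03 to 0.04 log2 units for dup and 0.11 to 0.15 for Orc6. The spread between libraries in the fit was 0.10 log2 units for dup, 0.11 for geminin and 0.21 for Orc6. For Orc5 it was 0.14, below 0.16 for lat and 0.18 for Orc4, which had more reads (197 to 346 and 186 to 312). A 95% interval on a difference between genotypes accordingly reached 0.23 log2 units to either side for dup and 0.47 for Orc6. With 2 libraries a genotype, a change smaller than this leaves 0 inside its interval. A larger change can still miss a call after adjustment over all genes.

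**Figure D1:**
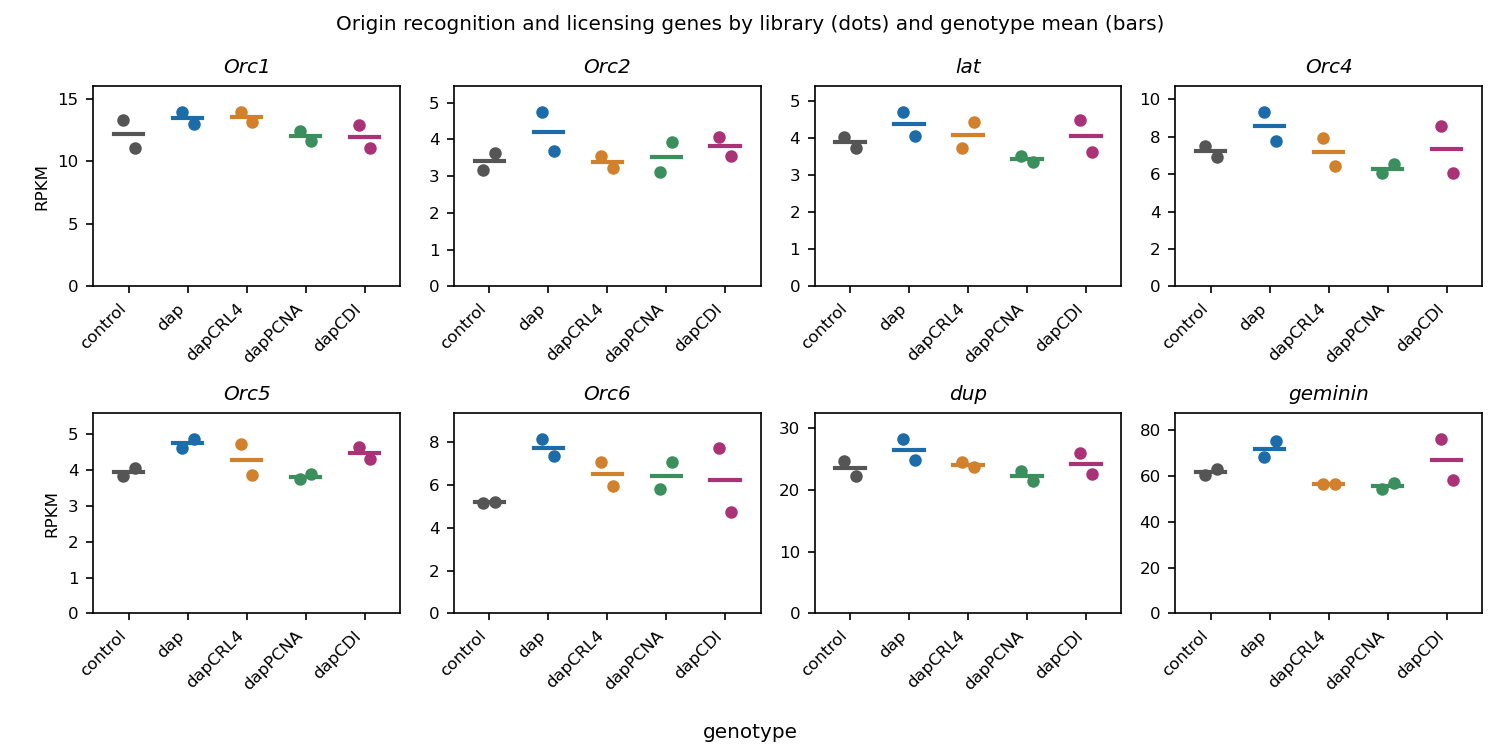
RPKM of each gene in every library (dots) and the genotype mean (bars), with genotype on the horizontal axis and a vertical axis from 0 that differs between genes. Geminin spans 54.1 to 76.0 RPKM and Orc2 3.12 to 4.74, and the dapCDI libraries lie farthest apart for Orc6, Orc4 and geminin.

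No gene of the 8 was called changed in any dacapo form against the control, by limma's moderated test with Benjamini-Hochberg adjustment over all genes tested and a call at an adjusted p under 0.05. The same rule called 11.8% of all genes for dap against the control, and for the stabilized forms 1.45% (dapCRL4), 1.3% (dapPCNA) and 7.56% (dapCDI). At an unadjusted p under 0.05, 1 of the 8 passed in dap, beside 32.8% of all genes, and 0 in each of the other forms, beside 16.1% (dapCRL4), 11.3% (dapPCNA) and 31.2% (dapCDI). The 4 comparisons share the control libraries, so their values are not independent of each other.

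The median difference was largest with wild-type dap. All 8 genes had a positive log2 difference from the control there, with a median of 0.23, against 0.06 over all genes tested, of which 58.0% were positive. Both dap libraries lay above both control libraries for 7 of the 8, against 39.4% of all genes, and for 0 of the 8 below, against 24.3%. The exception was Orc1, whose libraries overlapped.

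Orc6 showed the largest single difference. Its control libraries held 5.17 and 5.22 RPKM, against 8.15 and 7.34 with dap, 7.08 and 5.97 with dapCRL4, 5.79 and 7.10 with dapPCNA, and 7.73 and 4.74 with dapCDI. The control libraries were the closest pair and lay below every other library except the second of dapCDI. In dap the mean was 7.75 ± 0.568 RPKM (SD, n = 2) against 5.19 ± 0.0363, a log2 difference of 0.58 (SE 0.21, 95% interval 0.11 to 1.05), which missed the threshold (limma, adjusted p = 0.0947). The differences in dapCRL4, dapPCNA and dapCDI were 0.33, 0.31 and 0.22 with limma adjusted p of 0.494, 0.661 and 0.495. With only the dap and control libraries in the fit, Orc6 was called (limma, adjusted p = 0.0451), as were 11.4% of all genes. It was also called with either dapCDI library left out (limma, adjusted p = 0.0241 without the first and 0.0232 without the second). Those fits called 21.4% and 21.3% of all genes, so that a call was common in them. After correction for exon length Orc6 was not called (log2 difference 0.34, adjusted p = 0.302).

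Geminin levels were 60.3 and 62.9 RPKM in control embryos, 68.3 and 75.0 with dap, 56.5 and 56.5 with dapCRL4, 54.1 and 56.7 with dapPCNA, and 76.0 and 58.0 with dapCDI. The dap libraries lay above the control and those of dapCRL4 and dapPCNA below it, without overlap, while the dapCDI libraries lay on either side. The log2 difference from the control was 0.22 in dap (95% interval -0.03 to 0.47, limma adjusted p = 0.209) and 0.11 in dapCDI (-0.14 to 0.36, adjusted p = 0.536). It was -0.12 in dapCRL4 (-0.37 to 0.13, limma adjusted p = 0.63) and -0.15 in dapPCNA (-0.40 to 0.10, adjusted p = 0.678). Correction for exon length moved the dap value to -0.006 and the dapCDI value to -0.077, so the sign of neither held under that scaling.

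Geminin's target dup spanned a 1.31-fold range over the 10 libraries, against 1.4-fold for geminin. Levels of dup were 24.7 and 22.2 RPKM in control embryos, 28.1 and 24.8 with dap, 24.4 and 23.6 with dapCRL4, 23.0 and 21.4 with dapPCNA, and 25.9 and 22.4 with dapCDI. The dap libraries lay just above the control pair, and every other genotype overlapped it. Its log2 difference in dap was 0.17 (95% interval -0.05 to 0.40, limma adjusted p = 0.262), and the other 3 lay between -0.08 and 0.04. The ratio of geminin to dup, inhibitor over target, was 2.45 and 2.83 in the control and stayed between 2.32, in the first dapCRL4 library, and 3.03, in the second dap library.

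Orc1 levels were 13.3 and 11.1 RPKM in control embryos, 13.9 and 13.0 with dap, 13.9 and 13.1 with dapCRL4, 12.4 and 11.6 with dapPCNA, and 12.9 and 11.1 with dapCDI. Its control libraries spanned most of the range of all 10, and no genotype separated from them. Its log2 differences ran from -0.03 in dapCDI to 0.15 in dapCRL4. The dapCDI value changed sign, to 0.017, after correction for exon length.

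Orc4 levels were 7.48 and 6.94 RPKM in control embryos, 9.31 and 7.79 with dap, 7.94 and 6.44 with dapCRL4, 6.06 and 6.52 with dapPCNA, and 8.58 and 6.09 with dapCDI. The dap pair lay above the control and the dapPCNA pair below it, with the others spread across it. Its log2 difference was 0.24 in dap (95% interval -0.15 to 0.63) and -0.20 in dapPCNA (-0.59 to 0.20), with limma adjusted p of 0.362 and 0.752. In dapCDI it was 0.004, and turned to -0.016 with quantile normalization and -0.113 with the length correction.

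Intervals of the least abundant subunits reached 0.41 (Orc2), 0.32 (Orc5) and 0.36 (lat) log2 units to either side. Those of the more abundant Orc1, Orc4 and Orc6 reached 0.26, 0.39 and 0.47. Orc2 levels were 3.18 and 3.62 RPKM in control embryos, 4.74 and 3.68 with dap, 3.55 and 3.23 with dapCRL4, 3.12 and 3.93 with dapPCNA, and 4.07 and 3.55 with dapCDI. Its dap pair lay above the control, by 0.30 log2 units (95% interval -0.11 to 0.71, limma adjusted p = 0.284), and the second dap library only just cleared it. Orc5 levels were 3.84 and 4.06 RPKM in control embryos, 4.63 and 4.87 with dap, 4.73 and 3.86 with dapCRL4, 3.75 and 3.89 with dapPCNA, and 4.66 and 4.33 with dapCDI. Both the dap and the dapCDI pairs lay above the control, by 0.26 and 0.19 log2 units (limma adjusted p = 0.222 and 0.40). Levels of lat were 4.05 and 3.75 RPKM in control embryos, 4.71 and 4.08 with dap, 3.74 and 4.45 with dapCRL4, 3.54 and 3.37 with dapPCNA, and 4.49 and 3.65 with dapCDI. Its dap pair lay above the control by 0.17 log2 units (95% interval -0.19 to 0.53), and its dapPCNA pair below, at -0.17 (-0.54 to 0.19).

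In the stabilized forms the median differences lay nearer to 0. In dapCRL4 the median log2 difference of the 8 was 0.05 (all genes 0.04), with 1 gene above the control in both libraries (Orc6; 33.5% of all genes) and 1 below (geminin; 20.2%). In dapPCNA the median was -0.06 (all genes 0.002), with 1 gene above (Orc6; 25.1% of all genes) and 3 below (lat, Orc4 and geminin; 24.0%). In dapCDI the median was 0.08 (all genes 0.04), with 1 gene above (Orc5; 32.5% of all genes) and 0 below (26.6%). For the remaining 6, 4 and 7 genes the libraries overlapped those of the control. Over all 32 differences from the control, values lay between -0.20 and 0.58 on the log2 scale and 1 interval excluded 0, that of Orc6 in dap. The widest reach of any interval was -0.59 at the low end (Orc4 in dapPCNA) and 1.05 at the high end (Orc6 in dap), and for dup the 4 intervals stayed between -0.31 and 0.40.

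**Figure D2:**
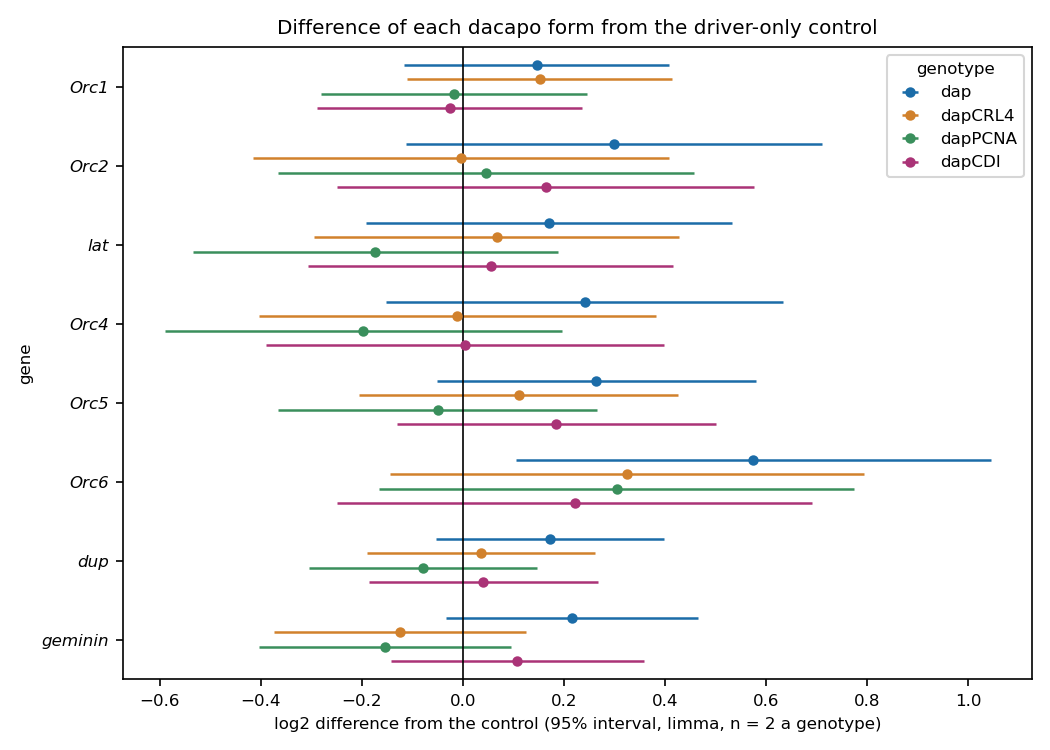
Log2 difference of each dacapo form from the control (dots) with its 95% interval from limma (lines), for each gene on the vertical axis, with 2 libraries a genotype. Only the interval of Orc6 in dap, 0.11 to 1.05, leaves 0 outside it.

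Differences by genotype ran alongside exon length over the whole table. Across the 10320 genes with a length, which are not independent replicates, the Spearman correlation of the log2 difference with exon length was -0.573 for dap and -0.55 for dapCDI. It was -0.299 for dapCRL4 and -0.216 for dapPCNA. The 2 shortest genes of the set, Orc6 and geminin, had 972 and 1061 exonic bases and differed in dap by 0.58 and 0.22. The longer Orc4, Orc5 and Orc2 differed by 0.24, 0.26 and 0.30, more than geminin. The 3 longest, lat, Orc1 and dup, had the 3 smallest differences in dap (0.17, 0.15 and 0.17). Genes within the length range of the set (5775 genes) had a median of 0.11 in dap, against 0.23 for the 8. After the length trend was subtracted, the median of the 8 for dap was 0.18 with 7 positive, beside 48.8% of all genes. The medians for dapCRL4, dapPCNA and dapCDI were then 0.035, -0.068 and 0.051. Still 0 of the 8 were called in any of the comparisons.

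**Figure D3:**
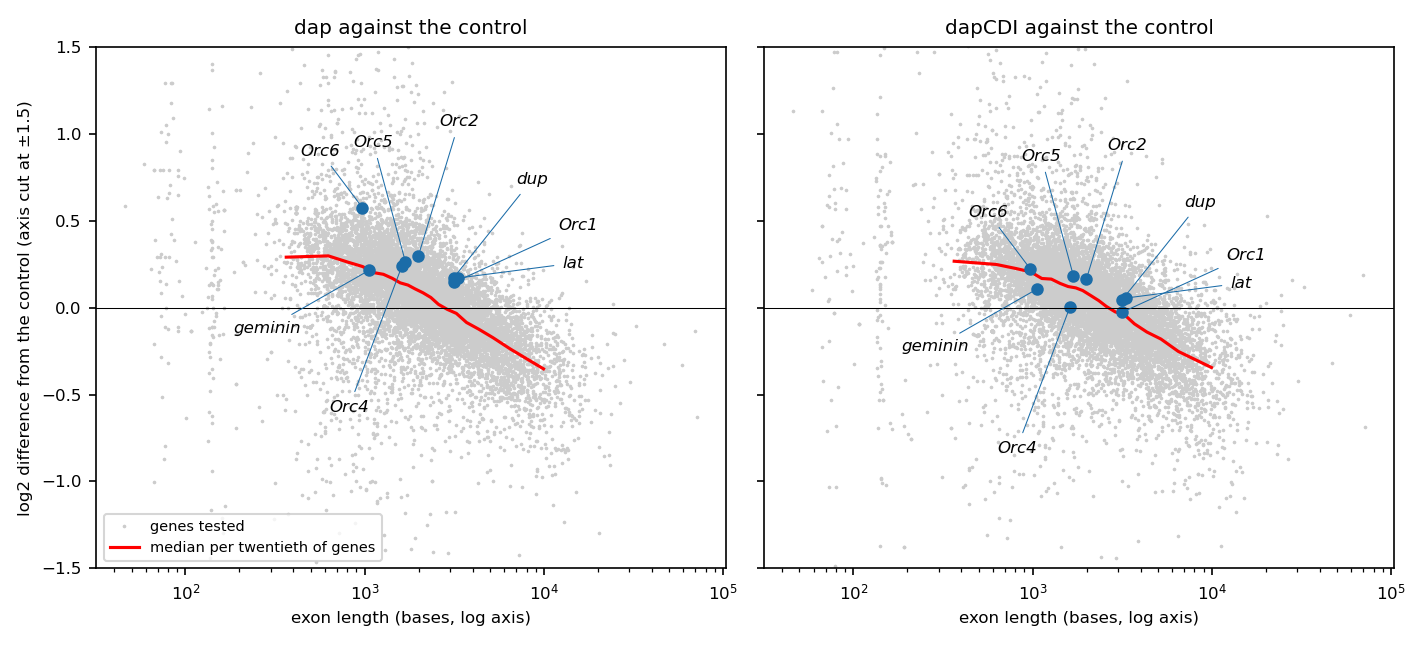
Log2 difference from the control against exon length (log axis) for dap and dapCDI, with genes tested in grey, their running median in red and the 8 genes in blue. In dap, Orc6 lies above the running median and geminin on it, in a trend with a Spearman correlation of -0.573.

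Against wild-type dap, the stabilized forms had lower mean levels of most of the 8 genes. All 8 genes were below dap in dapPCNA and in dapCDI and 7 of 8 in dapCRL4 on the log2 scale. Of all genes, 41.6%, 43.1% and 46.2% lay above dap, in the same order. The medians of the 8 were -0.29, -0.13 and -0.20, against -0.05, -0.03 and -0.02 over all genes. By limma's adjusted p, 0 of 8 were called in each, beside 1.33% of all genes in dapPCNA, 0.144% in dapCDI and 0.164% in dapCRL4. At an unadjusted p under 0.05 the counts were 3, 0 and 1, beside 24.0%, 10.4% and 14.7% of all genes. Both libraries lay below both dap libraries for 7 genes in dapPCNA (38.1% of all genes), 1 in dapCDI (19.5%) and 4 in dapCRL4 (29.4%). The 3 comparisons share the dap libraries with each other and with the comparison of dap and control, so a high dap value enters all of them.

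Geminin had the smallest adjusted p against dap. Its mean was 71.6 ± 4.76 RPKM (SD, n = 2) in dap, 55.4 ± 1.88 in dapPCNA and 56.5 ± 0.046 in dapCRL4. The log2 difference was -0.37 in dapPCNA (95% interval -0.62 to -0.12, limma adjusted p = 0.11) and -0.34 in dapCRL4 (-0.59 to -0.09, adjusted p = 0.244). In dapCDI it was -0.11 (-0.36 to 0.14, limma adjusted p = 0.828). With either dapCDI library left out of the fit, the dapPCNA difference was called (limma, adjusted p = 0.0239 in each case), beside 6.97% and 7.13% of all genes. After length correction it was -0.20 (adjusted p = 0.222).

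Orc4 and dup were the other genes whose interval in dapPCNA lay below 0 against dap. Orc4 stood at 6.29 ± 0.328 RPKM against 8.55 ± 1.08, a log2 difference of -0.44 (95% interval -0.83 to -0.04, limma adjusted p = 0.173). The gene dup stood at 22.2 ± 1.10 RPKM against 26.5 ± 2.39, a log2 difference of -0.25 (-0.48 to -0.03, limma adjusted p = 0.173). Of the remaining genes in dapPCNA, lat and Orc5 lay at -0.34 and -0.31, Orc6 at -0.27, Orc2 at -0.25 and Orc1 at -0.16. Orc1 in dapCRL4 was the single gene of the 24 differences above 0, at 0.006, and turned to -0.002 when libraries were centred on their medians and to -0.027 with the length correction. A test across genotypes gave the same calls. By limma's F test over any of the 5 genotypes 0 of 8 were called, beside 3.09% of all genes, and geminin came first with an adjusted p of 0.159. Among the 3 stabilized forms 0 of 8 were called, beside 0.135% of all genes, with geminin again first (limma, adjusted p = 0.442). At an unadjusted p under 0.05 the counts were 1 and 0, beside 28.1% and 12.2% of all genes.

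The dapCDI libraries lay farthest apart. All 8 genes were higher in the first dapCDI library than in the second, as were 62.4% of all genes, with a median gap of 0.26 log2 units, against 0.07 over all genes. The gap in dapCDI was 0.70 for Orc6, 0.50 for Orc4 and 0.39 for geminin. The median absolute gap over all genes was 0.171 in dapCDI and between 0.0909 and 0.127 in the other genotypes. In dapCRL4, 7 of the 8 were higher in the first library, against 48.5% of all genes, with a median absolute gap of 0.191 against 0.0994 over all genes. The counts were 6 of 8 in dap (63.3% of all genes), 4 in the control (55.7%) and 3 in dapPCNA (45%). Across genes, the gap between the dapCDI libraries had a Spearman correlation of -0.446 with exon length. Without the second dapCDI library, Orc6 and geminin differed from the control by 0.57 and 0.30 on the log2 scale and were called (limma, adjusted p = 0.04 and 0.0254). That fit called 25.0% of all genes, the same share as 2 of 8. Without the first, the same values were -0.13 and -0.09 and were not called, beside 0.798% of all genes.

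**Figure D4:**
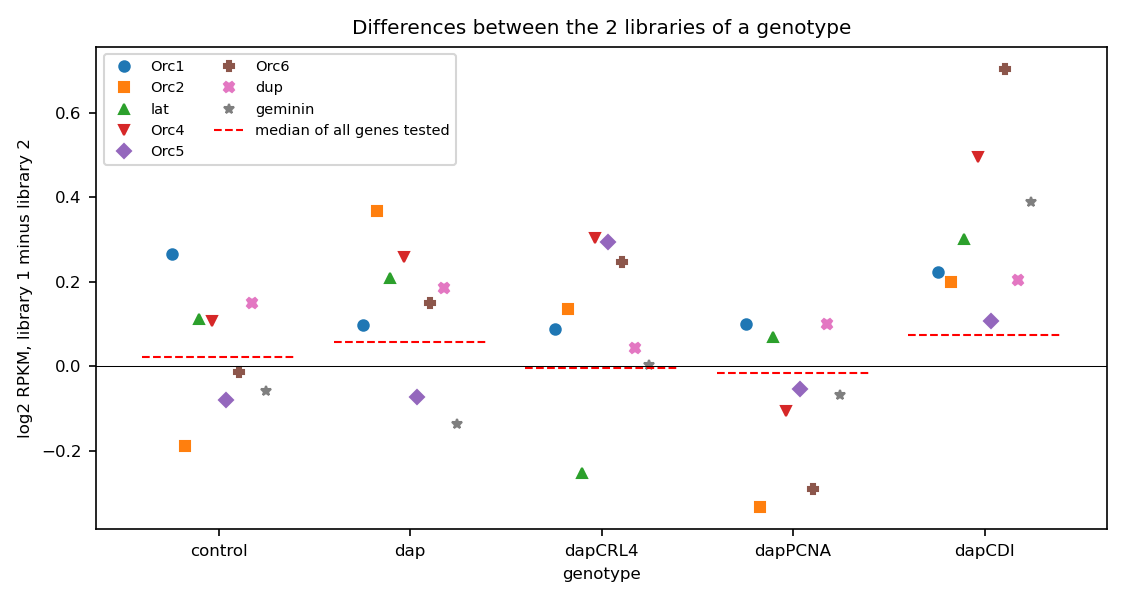
Log2 RPKM of library 1 minus library 2 within each genotype (horizontal axis), with a marker for each gene and a dashed line at the median of all genes tested. All 8 markers lie above 0 in dapCDI, up to 0.70 for Orc6.

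In the wider set of licensing and firing genes, the share called was in no comparison above that of all genes. The list held 27 genes: Cdc6, the MCM subunits and Mcm10, Cdc45, the GINS subunits, the kinase pair Cdc7 and chif, mus101, RecQ4, Rif1, chm, PCNA, the Cullin-4 ligase and the subunits of polymerase alpha. All 27 passed the filter. With dap 3 of 27 rose and 0 fell, beside 11.8% of all genes called. With dapCDI 1 rose and 0 fell, beside 7.56%. With dapCRL4 (1.45% of all genes) and dapPCNA (1.3%) 0 of 27 were called. In the same order the median log2 differences were 0.18, 0.03, 0.09 and 0.04. Against dap, 0 of 27 were called in any stabilized form, with medians of -0.17 in dapCRL4, -0.22 in dapPCNA and -0.14 in dapCDI.

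The GINS subunit Psf1, part of the active helicase, had 9.82 and 10.9 RPKM in control embryos, 18.3 and 17.8 in dap and 22.3 and 15.9 in dapCDI, with no overlap. The rise over the control was 0.80 log2 units with dap (limma, adjusted p = 0.0204). With dapCDI it was 0.87 log2 units (limma, adjusted p = 0.0228). DNApol-alpha60, a primase subunit, had 8.38 and 6.70 RPKM in control embryos and 13.0 and 11.6 in dap, and rose by 0.71 log2 units (limma, adjusted p = 0.0221). PCNA, the sliding clamp (listed as mus209), had 86.2 and 69.8 RPKM in control embryos and 114 and 109 in dap, and rose by 0.52 log2 units (limma, adjusted p = 0.0279). No dap library overlapped the control for any of these genes. The calls depended on single libraries, each left out alone: the count in dap was 0 without the second control library or either dap library, and 5 without either dapCDI library. Of all genes, 0.654% were called without the second control library, 9.2% and 0.702% without the first and second dap library, and 21.4% and 21.3% without a dapCDI library. The dap call of Psf1 was lost without any 1 control or dap library (limma adjusted p from 0.0541 to 0.122) and after length correction (0.0643), and so was that of PCNA after length correction (0.106). The call of Psf1 in dapCDI was lost without either control library or the first dapCDI library (limma adjusted p from 0.0921 to 0.14), and the count in dapCDI was 5 without the second dapCDI library, where 25.0% of all genes were called. None of these 4 calls held without a mean-variance trend (limma adjusted p from 0.0613 to 0.0778), and that of Psf1 in dapCDI was lost with only the groups compared (0.127).

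None of the 3 ligase genes whose products destroy the dup protein was called. Cul-4, the cullin, had genotype means between 25.4 and 27.7 RPKM, and pic, its DDB1 adaptor, between 21.5 and 25.6. The reader Cdt2 (listed as l[2]dtl) averaged 10.9 ± 1.11 RPKM (SD, n = 2) in the control and 13.4 ± 0.866 in dap, a log2 difference of 0.30 (limma, adjusted p = 0.142). The smallest adjusted p of these genes was 0.0787, for pic in dapCDI with a log2 difference of -0.25.

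Genes of dividing cells gave calls in the stabilized forms. The list of 10 held mitotic cyclins, the Cdk1-activating phosphatase string, polo, Aurora B (listed as ial), BubR1, pav, Top2 and fzy. Control libraries held 164 and 156 RPKM of their sum, against 158 and 151 with dap, 126 and 120 with dapCRL4, 111 and 110 with dapPCNA, and 120 and 116 with dapCDI. In dap 0 of 10 were called, beside 11.8% of all genes, with a median log2 difference of -0.03. In dapCRL4 2 fell, pav by 0.97 and Top2 by 0.57 on the log2 scale, beside 1.45% of all genes called, and the median was -0.36. In dapPCNA 5 fell (CycA, polo, ial, pav and Top2) with a median of -0.53, beside 1.3% of all genes called. In dapCDI 4 fell (CycA, CycB3, pav and Top2) with a median of -0.37, beside 7.56%. The cytokinesis gene pav fell by 1.07 log2 units in dapPCNA (limma, adjusted p = 0.00888), and the topoisomerase gene Top2 by 0.75 (adjusted p = 0.00245). The origin genes had medians of 0.05, -0.06 and 0.08 in these 3 genotypes. Whether the 2 lists differ was not tested, nor was the part of the dividing-cell transcripts in the values of the 8.

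The counts of dividing-cell calls also moved when a library was left out. In dap the count rose without the first dap library. In dapCRL4 it fell with any 1 control or dapCRL4 library left out. In dapPCNA it fell with any 1 control or dapPCNA library left out. The share of all genes called fell too in those fits of dapCRL4 and dapPCNA. In dapCDI the count was below 4 with any 1 of the libraries left out. All these fits leave 1 library in a genotype. Fits of only the groups compared gave counts of 0 in dapCRL4, 3 in dapPCNA and 0 in dapCDI. They called 0.885%, 1.2% and 0.414% of all genes.

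**Figure D5:**
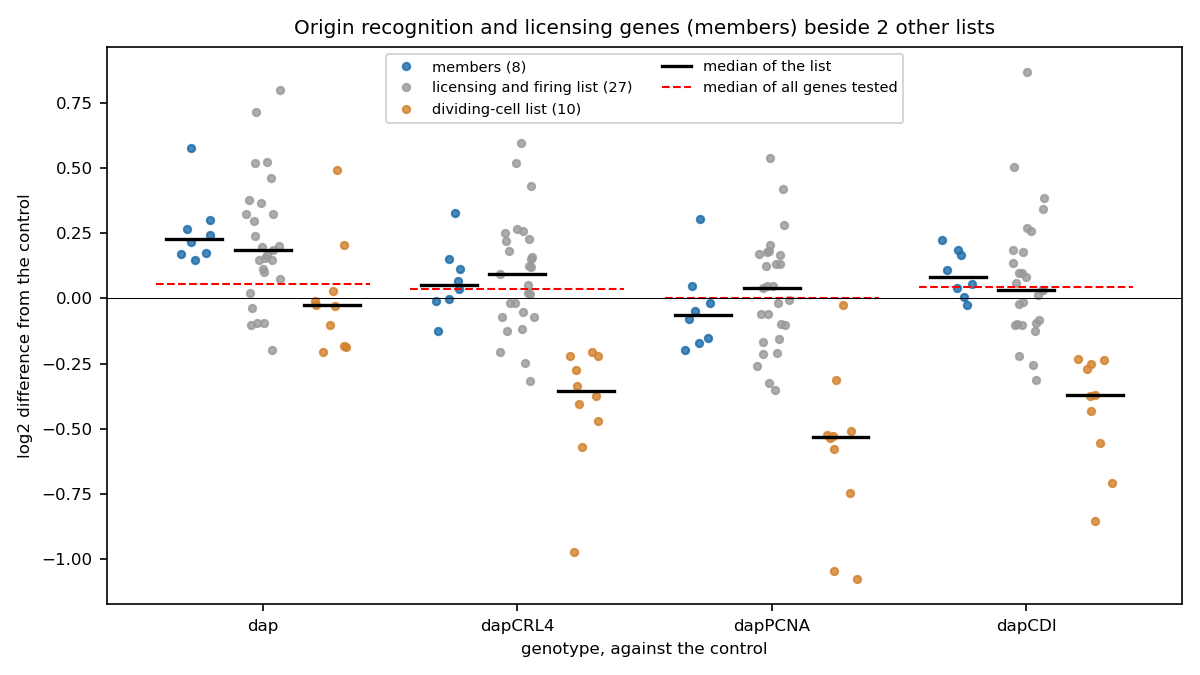
Log2 difference from the control for the 8 genes, the 27 licensing and firing genes and the 10 dividing-cell genes (dots), with list medians as black bars and the median of all genes tested as a dashed line. The dividing-cell medians are -0.36, -0.53 and -0.37 in dapCRL4, dapPCNA and dapCDI, and the medians of the 8 lie between -0.06 and 0.23.

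Over the 10 libraries, the 8 genes varied together to different degrees. As a description, the 28 pairs had Pearson correlations of log2 RPKM from 0.14 to 0.88, with a median of 0.61. The libraries behind these points share genotype, depth and the length trend. The highest were those of dup with Orc4 (0.88), lat (0.85) and Orc1 (0.80), and the lowest that of Orc1 with Orc2 (0.14). Orc4 ranked 37 among the 10395 other genes in likeness to dup, and dup ranked 39 in likeness to Orc4. By the same measure the best-placed member ranked 51 for Orc1, 68 for lat and 404 for Orc2. It ranked 551 for Orc5, 868 for geminin and 875 for Orc6. The median correlation of a gene with all genes tested outside the set lay between 0.145 (Orc5) and 0.215 (lat).

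For each gene, the 2 genes outside the set with the highest correlation are listed as a description only. They are the extremes over all genes tested, so values above that of the best-placed member were likely beforehand. For dup they were cpa, an actin capping protein subunit (r = 0.943), and CG4925 (0.932). For geminin they were CG31855 (0.967) and CG4573 (0.947). Closest to Orc6 were CG15715 (0.964) and CG9836 (0.936), and closest to Orc4 were ran, the GTPase of nuclear transport (0.957), and bl, an hnRNP K protein (0.947). Orc1 was closest to fd59A, a forkhead factor (0.906), and CG1640 (0.894), the lowest of these leading values. For lat they were CG42757 (0.957) and Rbbp5 (0.955), for Orc5 CG34174 (0.943) and CG15220 (0.932), and for Orc2 CG33695 (0.943) and Slimp (0.927).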

How the data were processed

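The authors deposited 1 table of log2 RPKM values per gene and library, from single 50-base reads of polyA RNA on build BDGP6, per the submitters' processing notes and the labels. The sources used here do not give the aligner, counting tool, annotation or use of strand. Rows without reads carry a floor of -9.10916 in the deposited log2 values. Names were matched to Ensembl 115 (11819 current symbols, 3474 older symbols and 129 without a unique match). Per the labels, sequencing gave 20.7 to 43.4 megareads a sample. Counted reads were estimated from the steps between genes with few reads, and only 18.5% to 20.5% of genes under 8 reads then came within 0.01 read of a whole number, so no count test was run.

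The 10396 genes that reached 1 RPKM in 2 or more libraries were fitted with limma 3.58.1 (R 4.3.3), all 10 libraries in 1 model with a mean for each genotype, a mean-variance trend, two-sided tests and Benjamini-Hochberg adjustment over all genes tested at 0.05. The procedure was tested on simulated data. The members and lists were chosen with earlier results of these data known. Named genes were the 8 members, called genes of the licensing and firing list, the ligase genes Cul-4, pic and l[2]dtl, and the 2 genes most like each member by Pearson correlation. Dividing-cell genes outside that rule were named after their values were seen. Alternatives were log2(RPKM + 1), no filter, a mean of at least 5 RPKM, quantile normalization, median centring, no trend, a replicate block, only the groups compared, a lowess correction for exon length (span 0.3) and leaving out each library. No sequence is printed, since no table of sequences was used here.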

Additional observations from a re-analysis of the deposited data

How the results depend on the processing

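The log2 differences of the 8 genes in 7 comparisons, refitted under 19 alternatives, gave 1043 values, of which 999 kept their direction and side of the threshold, 9 passed it and 35, none of them called, changed sign. The count of genes called kept its value of 0 in 162 of 171 refits. For dap against the control it was 1 with only the groups compared, and 0 to 2 when a library was left out, with 2 (Orc6 and geminin) when either dapCDI library was left out, where 21.4% and 21.3% of all genes were called. Leaving out a dapCDI library also moved the count for dapCDI against the control and for dapPCNA against dap. The same held for any of 5 genotypes and among the 3 stabilized forms. Such fits leave 1 library in a genotype, and where the count moved the share of all genes called rose as well. In the other comparisons the count did not move. The cause was not tested.

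The replicate numbers did not pair the samples (correlations of deviations between same-numbered libraries from -0.053 to 0.089). With a replicate block 0 of the 8 were called, and Orc6 in dap had an adjusted p of 0.0981 by limma. Over all genes the block gave 253 calls against 786 in dapCDI, and 889 against 1227 in dap. The count in dap was 615 without a filter, 193 without a trend, 340 with the length correction, and between 68 and 2225 when a library was left out. In dapCDI it was 260 without a filter, 139 without a trend, 43 with only the groups compared, 333 with the length correction, and between 78 (without the first control library) and 2595 (without the second dapCDI library). In dapPCNA against dap it was 138, or 36 without a trend, 25 with only the groups compared, and 8 to 741 with a library left out. Scaling moved the median of all genes by at most 0.06 log2 units. The lists' counts moved too. With the length correction, 1 licensing gene was called in dap, where calls over all genes fell from 1227 to 340. Dividing-cell calls were 4 in dapCRL4 and 7 in dapPCNA, where calls over all genes rose from 151 to 216 and from 135 to 203. Without a trend, 0 licensing genes were called, and without a filter PCNA in dap was not (limma, adjusted p = 0.0531). With either dapCDI library left out, the licensing count in dapCRL4 rose, as did the share of all genes called. Orc6 rested on 92 to 164 reads a library, with a counting error of 0.11 to 0.15 log2 units.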
